A study of Mus musculus with 8 samples.

Results

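The enzymes that make prostaglandins, thromboxane and leukotrienes from arachidonic acid were followed in macrophages from mammary tumours whose E2f3 gene had been deleted and in macrophages with the gene intact. The set was given as 10 genes: Ptgs1, Ptgs2, Ptges, Hpgds, Tbxas1, Alox5, Alox5ap, Alox15, Lta4h and Ltc4s. Probe sets annotated to exactly 1 of these symbols were taken. There were 14 such probe sets for 9 genes, among 34958 probe sets with 1 symbol for 18194 genes. Ptgs1 has no probe set named for it here and was not analysed. Each gene was represented by its probe set with the highest mean over the 8 arrays.

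Groups of 4 Affymetrix arrays each were compared, all from FVB mice aged 80 days that carry PyMT, an oncogene of viral origin that drives tumours of the mammary gland. In the E2f3-deleted group (arrays lettered A, E, F and H) the genotype was PyMT;Lys Cre:E2f3 f/f, in which Cre recombinase, driven from the lysozyme gene that is active in myeloid cells, acts on E2f3 alleles flanked by recombination sites. In the control group (arrays lettered B, C, D and G) it was PyMT;E2f3 f/f, the same alleles without Cre, so loss of E2f3 and presence of Cre cannot be told apart. The cells were tumour-associated macrophages sorted for F4/80. The labels do not say whether each array came from a separate animal, and the spread that the p-values measure may then be technical.

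Arachidonic acid is released from membranes by phospholipases A2. Cyclooxygenases, encoded by Ptgs1 and Ptgs2, turn it into prostaglandin H, from which terminal synthases make the individual prostanoids: Ptges makes prostaglandin E, Hpgds prostaglandin D and Tbxas1 thromboxane A. In the other branch Alox5 works with its membrane partner Alox5ap to make leukotriene A, which Lta4h hydrolyses to leukotriene B and Ltc4s joins to glutathione to give the cysteinyl leukotrienes. Alox15 oxygenates arachidonic acid at another carbon and in mice marks alternatively activated and resident peritoneal macrophages. Macrophages and mast cells are both known sources of these lipids.

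Promoters were read from RefSeq (GRCm38.p6, from 250 bases before to 50 bases after the annotated start) and searched for the site of the E2F factors, since an E2F gene was deleted. Of the 10 genes, 8 had an entry, all but Alox5ap and Alox15. For Ptgs1, Ptges, Hpgds and Tbxas1 the start used lay inside the annotated span of the gene, and other starts were not searched. The words searched on both strands were TTTCCCGC, TTTCGCGC, TTTGCCGC and TTTGGCGC. None of the 8 promoters held any of them, and 2.26% of all 32851 promoters of that length did. The GC box GGGCGG was found in Ptgs2, Ptges and Alox5 (35.7% of all promoters), the TATA box TATAAA in Tbxas1 (13.6%) and the E box CACGTG in Ptgs2 (7.15%). A missing match says only that these letters are not in this window. Promoters are shown 5′ to 3′ for the enzyme with the smallest p (Alox5), the one with the largest difference (Ltc4s) and the one with the largest spread (Ptgs2), with GC and E boxes in capitals.
Alox5 promoter, chr6:116461129-116461428, minus strand: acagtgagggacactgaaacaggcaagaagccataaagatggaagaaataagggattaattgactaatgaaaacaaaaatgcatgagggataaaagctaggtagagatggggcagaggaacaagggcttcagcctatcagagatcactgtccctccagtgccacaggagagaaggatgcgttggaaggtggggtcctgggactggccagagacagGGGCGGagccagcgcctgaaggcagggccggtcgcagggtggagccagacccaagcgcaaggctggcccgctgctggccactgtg
Ltc4s promoter, chr11:50238483-50238782, minus strand: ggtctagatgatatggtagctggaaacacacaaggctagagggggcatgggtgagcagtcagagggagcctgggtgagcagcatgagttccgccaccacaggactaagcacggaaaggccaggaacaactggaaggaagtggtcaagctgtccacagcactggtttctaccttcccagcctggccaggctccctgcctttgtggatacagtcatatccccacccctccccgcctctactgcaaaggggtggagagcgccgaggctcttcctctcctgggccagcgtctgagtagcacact
Ptgs2 promoter, chr1:150099781-150100080, plus strand: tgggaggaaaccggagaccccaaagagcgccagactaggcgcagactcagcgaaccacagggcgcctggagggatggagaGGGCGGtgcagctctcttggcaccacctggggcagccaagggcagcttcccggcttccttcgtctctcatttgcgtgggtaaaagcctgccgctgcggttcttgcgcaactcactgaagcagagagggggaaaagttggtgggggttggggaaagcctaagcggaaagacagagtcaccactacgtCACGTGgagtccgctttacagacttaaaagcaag

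The titles put the arrays in groups, but the letters in the titles are not those of the scan files named with them, and by the scan letters array F of the E2f3-deleted group and array B of the controls would change places. Titles were followed. All values below are log2 signals made by the authors with RMA, and each difference is E2f3-deleted minus control. E2f3-deleted replicate H stood apart: its mean correlation with its own group over all probe sets was 0.983, whereas the other E2f3-deleted arrays had 0.990 to 0.991 and control arrays 0.994 to 0.995. Of the 10 macrophage markers examined, all were above the filter on mean signal and 9 were lower in E2f3-deleted cells (median −0.13), with summed linear signals of 114079 to 124307 in E2f3-deleted cells and 123049 to 135007 in controls. All 11 mast cell markers with a probe set were higher, by a median of 0.98. Their summed signal was 23175 in replicate H and 983 to 2635 in replicates A, E and F, against 702 to 1102 in controls; Fcer1a, Hdc and Mrgprb1 stayed below the filter. All 12 endothelial markers were higher, with sums of 1980 to 9070 in E2f3-deleted cells and 1160 to 2591 in controls. Replicate H, at 1980, lay within the control range. The median for this list, 1.30, was the largest of the cell types examined. Each of its 10 genes above the filter had an unadjusted p under 0.05 in limma, against 14.2% of all genes tested. None of them passed an adjusted p of 0.05. All 10 fibroblast markers were higher, by a median of 0.70, with a summed signal of 50122 in replicate H and 11514 to 29569 in replicates A, E and F, against 8603 to 21880 in controls. All 11 epithelial markers were higher too, by a median of 0.42, with sums of 25290 to 34289 in E2f3-deleted cells and 22992 to 32822 in controls. Most of each sum came from Csn3, at log2 14.21 to 14.43 in E2f3-deleted cells and 14.08 to 14.34 in controls. Other epithelial markers varied more, such as Krt19, at 7.18 to 11.03 and 7.78 to 9.67. Eosinophil and basophil markers were all below the filter, and 5 of 6 lymphocyte markers were lower, with sums of 216 to 439 in E2f3-deleted cells and 245 to 1052 in controls. The part of these cells in the results below was not tested. The brighter E2f3 probe set differed by −0.05 (95% confidence interval −0.24 to 0.15, limma) and the dimmer by −0.13 (interval −0.33 to 0.06). Both intervals include 0, and whether either probe set lies in the deleted part is not stated. Deletion is taken here from the genotype.

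Genes whose mean signal lay below the 40th percentile of all genes (log2 6.0) were left out of the test, which left 10916 genes and 7 of the 9 enzymes. None of the 7 passed an adjusted p of 0.05 in limma, as was true of 0 of all genes tested (0%). Each of the 7 was lower on average in E2f3-deleted macrophages, Ptgs2 by only −0.01 and not so with its probe sets averaged (0.03). Their median difference was −0.25, where 58.7% of all genes tested were lower and their median was −0.03. Of the 7, only Alox5 had an unadjusted p under 0.05, a level reached by 14.2% of all genes tested. The median was −0.15 without replicate A and −0.14 with the scan file letters as groups. The count with an unadjusted p under 0.05 was 0 without replicate A, B or C, by the scan letters and in the equal-variance test, and 2 without replicate F. In 0 of the 7 were the groups free of overlap, which 8.49% of all genes were. Ptges and Alox15, below the filter, had values above 0. Signal from fewer cells of a type and from less RNA per cell cannot be told apart in these sorted bulk samples.

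**Figure D1:**
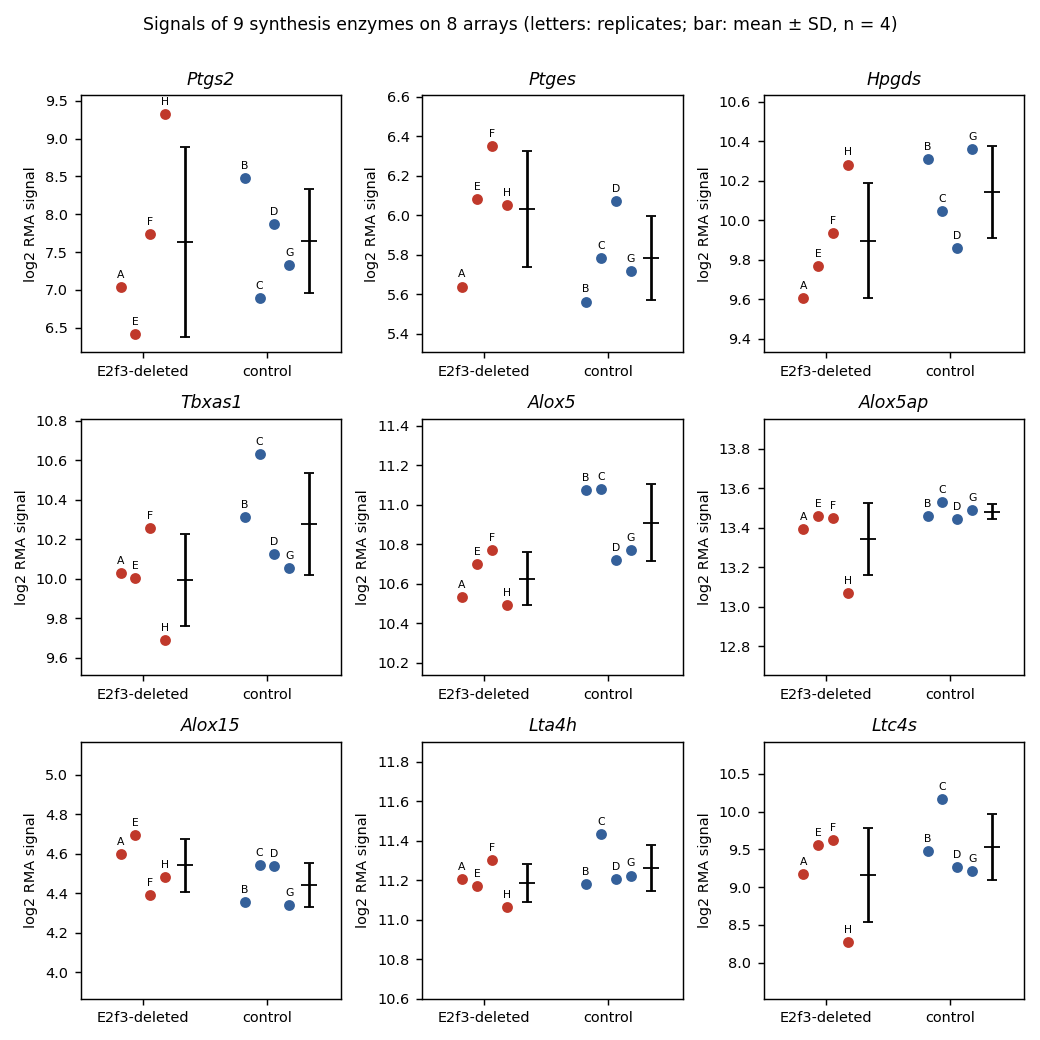
Log2 RMA signal of each measured enzyme on every array (vertical axis; points lettered by replicate), with E2f3-deleted arrays at left in red and control arrays at right in blue; black bars are the mean ± SD of 4 arrays. The vertical axes span 3.4 log2 units for Ptgs2 and Ltc4s and 1.3 for the rest. Alox5 has 3 of 4 E2f3-deleted arrays below all controls, replicate H is the lowest array for Alox5, Alox5ap, Tbxas1, Lta4h and Ltc4s, and Ptgs2 spreads widely in both groups.

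In the prostanoid branch, the inducible cyclooxygenase Ptgs2 had signals of 7.04, 6.42, 7.74 and 9.33 in E2f3-deleted arrays A, E, F and H, against 8.48, 6.90, 7.87 and 7.32 in control arrays B, C, D and G. The highest and the lowest of the 8 arrays, H and E, were both E2f3-deleted. The difference was −0.01 (SE 0.617), with an interval of −1.43 to 1.41, so that changes of more than 2-fold either way lie within the interval (adjusted p = 0.994). It was −0.58 without replicate H and 0.39 without replicate E, and its sign also turned without replicate A, B or D (0.19, 0.27 and 0.07). A dimmer Ptgs2 probe set, between 3.74 and 4.65 on all arrays, had the same highest array and a difference of 0.08.

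Ptges, the inducible prostaglandin E synthase, lay just below the filter at means of 6.03 ± 0.293 in the E2f3-deleted and 5.78 ± 0.212 in the control macrophages (SD, n = 4 each). Its values were 5.64, 6.08, 6.35 and 6.05 in E2f3-deleted arrays A, E, F and H, against 5.56, 5.78, 6.07 and 5.72 in control arrays B, C, D and G. Replicates E and F were above all 4 controls, replicate H above 3 of them and replicate A above control replicate B alone. Fitted without the filter, the difference was 0.25 (interval −0.12 to 0.61, adjusted p = 0.562). It was 0.14 without replicate F, 0.38 without replicate A and −0.15 with the scan file letters as groups. The other Ptges probe sets, both dimmer, had differences of 0.51 (interval −0.12 to 1.13) and 0.04 (interval −0.19 to 0.28).

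Hpgds, the haematopoietic prostaglandin D synthase, had signals of 9.61, 9.77, 9.94 and 10.28 in E2f3-deleted arrays A, E, F and H, and of 10.31, 10.05, 9.86 and 10.36 in control arrays B, C, D and G. Replicates A and E lay below all controls, and replicate F lay just above control replicate D. Replicate H, above control replicates C and D, had the highest mast cell and fibroblast sums and the lowest macrophage sum. Control replicates G and B were higher still for Hpgds, with mast cell sums of 1096 and 986. The part of these cells in Hpgds was not tested. The difference was −0.25 (SE 0.165, interval −0.63 to 0.13, adjusted p = 0.509), and it was −0.38 without replicate H, −0.15 without replicate A and −0.06 with the scan file letters as groups. Tbxas1, thromboxane synthase, had signals of 10.03, 10.002, 10.26 and 9.69 in E2f3-deleted arrays A, E, F and H, and of 10.31, 10.63, 10.12 and 10.05 in control arrays B, C, D and G. For Tbxas1 replicate F was the only E2f3-deleted array above some controls, D and G. The difference was −0.28 (SE 0.155, interval −0.64 to 0.07, adjusted p = 0.431), and it was −0.18 without replicate H and −0.17 without control replicate C. Of 8 markers of platelets, another cell rich in thromboxane synthase, 3 were higher and 5 lower, and Ppbp, Gp1bb and Gp6 lay below the filter. Their summed signals were 4853 to 10084 in E2f3-deleted cells and 6735 to 11497 in controls, nearly all of it from Pf4, so they follow that gene. The part of platelets in Tbxas1 was not tested.

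In the leukotriene branch, Alox5, the lipoxygenase that starts the branch, had signals of 10.53, 10.70, 10.77 and 10.49 in E2f3-deleted arrays A, E, F and H. In control arrays B, C, D and G they were 11.07, 11.08, 10.72 and 10.77. Only replicate F reached into the control range, just above D and G, and replicate H was the lowest of the 8 arrays. Alox5 was 1.22-fold lower in E2f3-deleted macrophages (log2 −0.28, SE 0.110, interval −0.54 to −0.03), with an unadjusted p of 0.0314 in limma and an adjusted p of 0.308, so it did not pass. Leaving out any single array gave differences from −0.35 to −0.23, with −0.24 without replicate H. With the scan file letters as groups it was −0.14.

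Alox5ap, the membrane protein that presents arachidonic acid to Alox5, had signals of 13.39, 13.46, 13.45 and 13.07 in E2f3-deleted arrays A, E, F and H, and of 13.46, 13.53, 13.45 and 13.49 in control arrays B, C, D and G. These lie near the top of the scale, where RMA signals are compressed. The SD was 0.184 in E2f3-deleted cells and 0.039 in controls, and replicate H was the lowest array. The difference was −0.14 (interval −0.35 to 0.07, adjusted p = 0.507) with all arrays and −0.05 without replicate H.

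Lta4h, the hydrolase of leukotriene B synthesis, had its brightest probe set at 11.21, 11.17, 11.30 and 11.06 in E2f3-deleted arrays A, E, F and H, and at 11.18, 11.43, 11.21 and 11.22 in control arrays B, C, D and G. Replicates E and H lay below every control, while replicates A and F lay among them. The difference was −0.08 (SE 0.078, interval −0.25 to 0.10, adjusted p = 0.670), or −0.02 without control replicate C and −0.03 without replicate H. The other Lta4h probe sets gave other values. The brighter of these had 6.39, 6.11, 6.14 and 6.07 in E2f3-deleted arrays A, E, F and H against 6.41, 6.48, 6.37 and 6.32 in control arrays B, C, D and G, with 3 of 4 E2f3-deleted arrays below all controls. Its difference was −0.22 (interval −0.41 to −0.03), with an unadjusted p of 0.0283 and an adjusted p of 0.447 over all probe sets in limma. The other, between 5.71 and 6.05 on all arrays, differed by 0.03.

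Ltc4s, leukotriene C synthase, had the largest difference of the enzymes and a wide error. Its signals were 9.17, 9.56, 9.63 and 8.28 in E2f3-deleted arrays A, E, F and H, against 9.48, 10.17, 9.26 and 9.21 in control arrays B, C, D and G. Replicate H was the lowest and control replicate C the highest of the 8. The others overlapped, at 9.17 to 9.63 in E2f3-deleted arrays and 9.21 to 9.48 in controls. The difference was −0.37 (SE 0.331, interval −1.13 to 0.39, adjusted p = 0.621). It was −0.08 without replicate H and −0.16 without control replicate C. The mast cell markers, which stand for a cell type that also makes leukotriene C, were at their highest in replicate H, where Ltc4s was lowest. Replicate H also had the highest fibroblast sum and the lowest macrophage sum. The part of these cells in Ltc4s was not tested. Alox15 was listed at 4.39 to 4.69 in E2f3-deleted cells and 4.34 to 4.54 in controls, far below the filter, with a difference of 0.10 (interval −0.10 to 0.30, adjusted p = 0.671 in the fit without the filter).

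**Figure D2:**
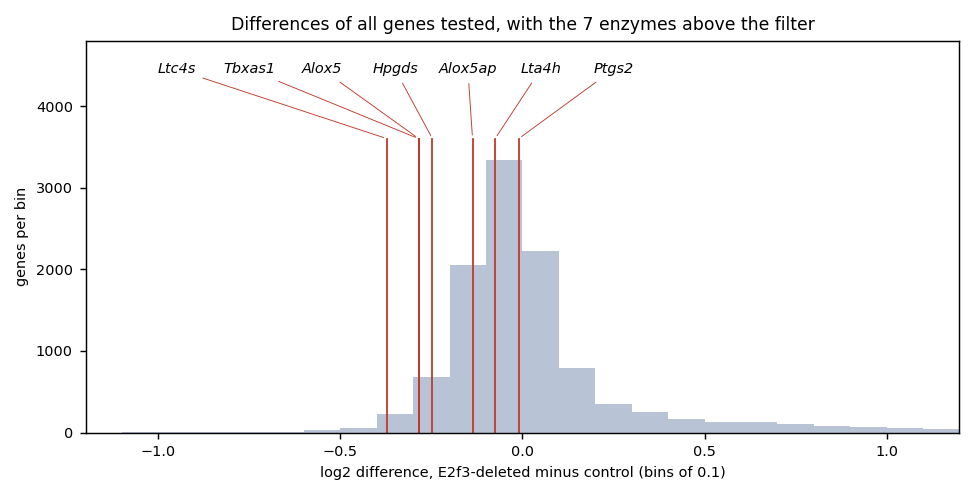
Number of genes (vertical axis) per bin of 0.1 in the log2 difference, E2f3-deleted minus control (horizontal axis), for the 10916 genes tested, of which 119 lie outside the axis limits. Red lines mark the 7 enzymes above the filter, which run from −0.37 for Ltc4s to −0.01 for Ptgs2, all left of 0.

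Set among all genes tested, 1.38% had a lower difference than Ltc4s, 3.64% than Tbxas1, 3.66% than Alox5 and 5.73% than Hpgds. By p the order was another one: 10.2% of the genes had a smaller p than Alox5, 23.8% than Tbxas1, 34.0% than Hpgds and 47.2% than Ltc4s. Alox5ap and Lta4h, with 18.9% and 35.2% of the genes lower, and Ptgs2, with 55.5%, lay in the body of the distribution.

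Ptgs2 and Ltc4s were the enzymes above the filter whose signal ranged over more than 1 log2 unit across the arrays (2.91 and 1.89). Genes of like pattern were ranked by the mean absolute difference of values centred on each gene's mean over the 8 arrays. For Ltc4s the nearest were Folr2, a folate receptor of macrophages (0.092 log2 units), Ednrb, an endothelin receptor (0.094), and Pltp, a phospholipid transfer protein (0.099). Folr2 had signals of 11.36, 11.95, 12.10 and 10.79 in E2f3-deleted arrays A, E, F and H, against 11.84, 12.44, 11.83 and 11.59 in control arrays B, C, D and G, with the same lowest and highest arrays as Ltc4s. For Ptgs2 the nearest were less near: Tmem45a (0.284), Snorc (0.290) and Cxcl10, an interferon-induced chemokine (0.324). Cxcl10 had signals of 7.92, 8.45, 8.44 and 10.20 in E2f3-deleted arrays A, E, F and H, against 8.81, 7.77, 8.82 and 8.55 in control arrays B, C, D and G. Both were highest in replicate H and low in control replicate C, but replicate E, the lowest array for Ptgs2, was not low for Cxcl10.

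**Figure D3:**
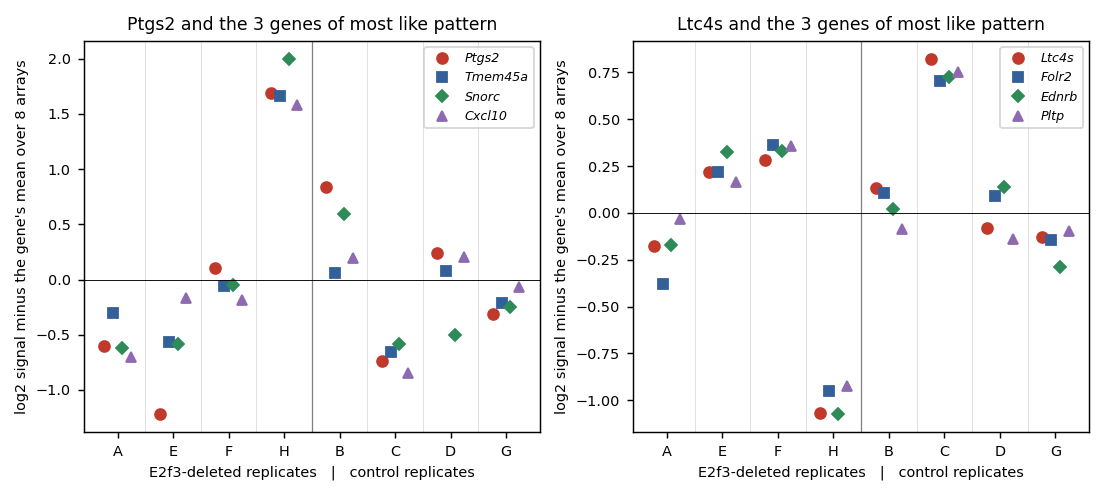
Log2 signal minus each gene's mean over the 8 arrays (vertical axis) on each array (horizontal axis; E2f3-deleted replicates left of the dark line, control replicates right) for Ptgs2 and Ltc4s, each with its 3 nearest genes. Ltc4s, Folr2, Ednrb and Pltp lie together on every array, lowest in replicate H and highest in control replicate C. All 3 nearest genes of Ptgs2 part from it on replicate E, Tmem45a and Cxcl10 also on control replicate B, and Snorc on control replicate D.

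Around the synthesis enzymes, 55 other genes of the pathway were examined by role. Of these 49 had a probe set and 27 passed the filter, 19 of them lower and 8 higher in E2f3-deleted macrophages, with a median of −0.05. Among all genes tested 58.7% were lower, with a median of −0.03. None passed an adjusted p of 0.05, and 3 had an unadjusted p under 0.05, where 14.2% of all genes did. Among phospholipases A2, 4 of 5 tested genes were lower. Pla2g7, which inactivates platelet-activating factor, had values of 12.10, 12.17, 12.25 and 11.72 in E2f3-deleted arrays A, E, F and H and of 12.19, 12.64, 12.38 and 12.34 in control arrays B, C, D and G. Its difference was −0.33 (interval −0.64 to −0.02, adjusted p = 0.335), and −0.21 without replicate H. Pla2g15, the lysosomal enzyme, had a difference of −0.13 (−0.08 without replicate H) and Pla2g6 of −0.05. The cytosolic Pla2g4a, which supplies most arachidonic acid for this pathway, had 0.0042.

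Of the 5 other prostanoid synthases tested, 4 were lower by small amounts, among them Prxl2b (−0.25, interval −0.59 to 0.10), Ptges2 (−0.05) and Ptgds (−0.05). Of the 5 other lipoxygenases and leukotriene enzymes tested, Aloxe3 differed by −0.09, Mgst3 by −0.19 and the dipeptidase Dpep1 by 0.36 (interval −0.71 to 1.42). Without replicate H Mgst3 differed by −0.03 and Prxl2b by −0.16, without control replicate G Aloxe3 by −0.05, and without replicate A Dpep1 by −0.02. The 5 receptors that passed the filter lay near 0 or had wide errors. The prostaglandin E receptor genes Ptger4 and Ptger2 had differences of 0.01 (interval −0.19 to 0.22) and −0.21 (interval −0.87 to 0.44), and the thromboxane receptor Tbxa2r 0.02. Ptger3, another prostaglandin E receptor, lay below the filter and is named after its values were seen. Its signals were 5.59, 4.47, 4.89 and 5.19 in E2f3-deleted arrays A, E, F and H, against 4.44, 4.15, 4.28 and 4.36 in control arrays B, C, D and G. Every E2f3-deleted array was above every control, replicate E (4.47) only just above control replicate B (4.44). Of all genes tested above the filter 4.26% were separated in this direction, and the share below it was not counted. The Ptger3 difference was 0.73 (interval 0.24 to 1.21, adjusted p = 0.309 in the limma fit without the filter), so it did not pass. The leukotriene receptors Cysltr1 (−0.19) and Ltb4r1 (−0.07) were both lowest in replicate H, at 9.57 and 7.37, and without it the differences were 0.02 and 0.28. Ptger2 was also lowest there, at 8.54, and differed by 0.08 without it.

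The largest differences among the 27 genes were in transport and breakdown. In 2 of the 27, both in this list, the groups did not overlap in one direction or the other, as in 8.49% of all genes tested. Slco2a1, the prostaglandin transporter that carries prostaglandins into cells, had signals of 9.76, 9.28, 9.72 and 9.45 in E2f3-deleted arrays A, E, F and H, against 8.60, 8.31, 9.07 and 8.62 in control arrays B, C, D and G. Every E2f3-deleted array was above every control, as in 4.26% of all genes tested. The difference was 0.90, or 1.86-fold (SE 0.171, interval 0.51 to 1.29, adjusted p = 0.158), so it did not pass. It was 0.93 without replicate H, 0.58 with its probe sets averaged and 0.34 with the scan file letters as groups. The summed endothelial markers were 9070, 4268, 7798 and 1980 in E2f3-deleted arrays A, E, F and H, against 1160, 1759, 2591 and 1777 in control arrays B, C, D and G. Replicates A and F were highest for both Slco2a1 and these markers, and D was the highest control for both. In replicate H the endothelial sum lay within the control range and the fibroblast sum above it. The part of these cells in the difference was not tested. Cyp4f18, which breaks down leukotriene B, had signals of 8.63, 8.66, 8.52 and 7.67 in E2f3-deleted arrays A, E, F and H, against 8.97, 8.91, 8.76 and 9.27 in control arrays B, C, D and G. Every E2f3-deleted array was below every control, as in 4.23% of all genes. Its difference was −0.61 (SE 0.227, interval −1.13 to −0.08, adjusted p = 0.299), and it was −0.37 without replicate H, −0.40 with its probe sets averaged and −0.38 with the scan file letters as groups. Markers of neutrophils, in which mouse Cyp4f18 is also known, were higher in 4 and lower in 5 of 9. Their sums were 1654 to 6960 in E2f3-deleted cells and 2378 to 4475 in controls. Ltf was the brightest of them on every array, at log2 9.41 to 12.52 in E2f3-deleted cells and 10.49 to 11.73 in controls. Ltf and the sums were both highest in replicate E and, among controls, in D, so the sums largely follow that gene. Epithelial marker sums were also highest in replicate E (34289) and, among controls, in D (32822). The neutrophil sums therefore cannot be read as neutrophils alone, and the cells that Ltf came from were not tested. Mpo, Elane, Camp, Ngp and Cxcr2 lay below the filter. The part of neutrophils in Cyp4f18 was not tested. Abcc1, an exporter of leukotriene C, had a difference of −0.23 (interval −0.52 to 0.06).

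**Figure D4:**
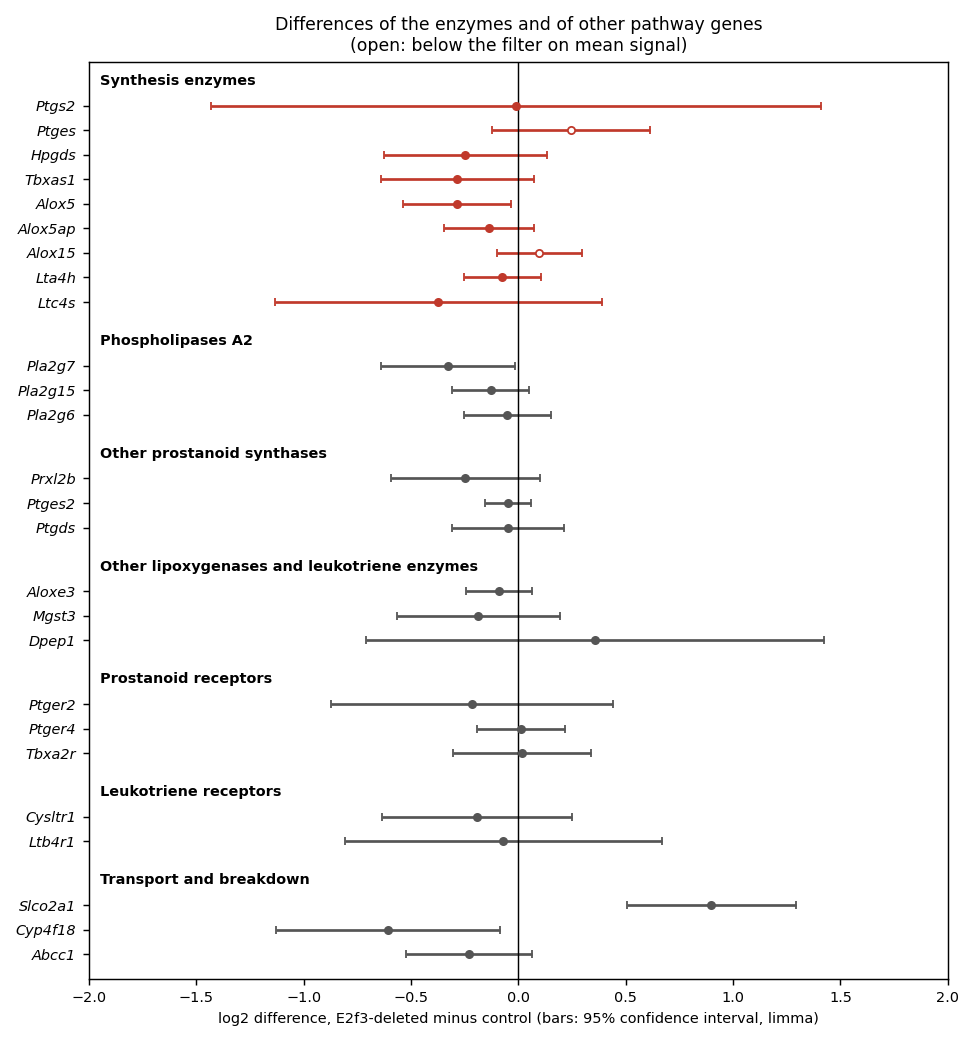
Log2 difference, E2f3-deleted minus control (horizontal axis), with its 95% confidence interval from limma (bars) for the 9 measured enzymes (red, open where below the filter) and the named pathway genes of each role (grey). The intervals of Alox5, Pla2g7, Slco2a1 and Cyp4f18 leave out 0 before adjustment, and Ptgs2, Ltc4s and Dpep1 have the widest intervals.

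The 3′ minus 5′ difference of the Gapdh control probe sets, a measure of RNA integrity, was 1.67 ± 0.167 in E2f3-deleted cells and 1.45 ± 0.064 in controls (SD, n = 4 each) on the arrays behind all of these comparisons. Its part in them was not tested.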

How the data were processed

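The authors deposited log2 signals of 45101 probe sets on 8 Affymetrix arrays; RMA, which corrects background, equalises the distributions of arrays and sums up probes, is named in the submitters' processing notes. Its version and the genome build were not given in the sources used here. Because RMA equalises arrays, a change common to most of the transcriptome is removed. Values were used as deposited; scan files and scan dates were not used here.

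Groups came from the titles, whose replicate letters are not shared between groups, so there is no pairing. Genes were named by the platform annotation; 932 probe sets with several symbols and 9211 with none here were not named. The members, lists and tests were chosen with earlier results of these data known. The test was limma 3.58.1 in R 4.3.3 (lmFit, eBayes, all 8 arrays, two-sided, Benjamini-Hochberg adjusted p under 0.05 over the 10916 genes past the filter; genes below it in a fit of all 18194 genes, single probe sets in a fit of all probe sets). Intervals are limma's 95% intervals, not adjusted. The number of arrays limits the precision. The test was checked on simulated arrays. In each role list the 3 genes above the filter with the smallest p were named, and Pla2g4a and Ptger3 besides, chosen after their values were seen.

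Alternatives were averaging the probe sets of a gene, other filters (none, 60th percentile), quantile normalization again, median centring, array weights, a trended robust prior, an unmoderated equal-variance test, every probe set, an adjusted p of 0.1, and each array left out. A last one took groups from the scan file letters in the descriptions, by which control B and E2f3-deleted F change places.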

Additional observations from a re-analysis of the deposited data

Results flagged for a closer look

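For the brightest probe set of Lta4h, control replicate C lay at 11.43, far above the other controls at 11.18 to 11.22. The gap to its neighbour, divided by the range of the 4 controls, was above the critical value of Dixon's test for 4 samples. This was 1 of 28 groups examined, over 14 probe sets and both groups, and chance flags about 1 group in 20.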

How the results depend on the processing

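No enzyme and no other pathway gene passed an adjusted p of 0.05 in limma under any alternative tried, nor, with all arrays and otherwise unaltered settings, an adjusted p of 0.1. Other pathway genes below the filter, Ptger3 among them, were not in the runs with an array left out. The lowest adjusted p among the enzymes and the genes named by smallest p was 0.0785, for Slco2a1 with array weights. Single-gene values under alternatives were not taken for Pla2g4a, Ptger3, Pla2g2d and Akr1c18. Over all genes, 0 passed with all arrays and 0 to 60 when each array was left out in turn, with 60 without E2f3-deleted replicate E and 14 without replicate H. Hpgds, Tbxas1, Alox5, Alox5ap, Lta4h and Ltc4s were lower under all 18 alternatives. Of 457 single-gene values under alternatives, 27 turned sign. When each array was left out in turn, Ptgs2 ranged from −0.576 to 0.394, Pla2g6 from −0.119 to 0.00604, Ptgds from −0.141 to 0.0328, Dpep1 from −0.0197 to 0.722, Ptger2 from −0.368 to 0.0815, Ptger4 from −0.0212 to 0.0978, Tbxa2r from −0.0908 to 0.147, Cysltr1 from −0.305 to 0.0154 and Ltb4r1 from −0.262 to 0.280. With groups from the scan file letters, Ptgs2 was 0.356, Ptges −0.147, Pla2g6 0.0161 and Aloxe3 0.0207, all of the other sign, Slco2a1 was 0.343, and 449 genes had an unadjusted p under 0.05, against 1548 by title. With a gene's probe sets averaged, Ptgs2 was 0.0332 and Ptger4 −0.0686. With array weights, Ptger2 was 0.00985, Ptger4 −0.0191 and Ltb4r1 0.142, and with quantile normalization again Tbxa2r was −0.00485. The causes were not tested. No paired analysis was possible because the groups share no replicate letters. Signals near the top of the scale, such as Alox5ap, and below the filter, such as Alox15, limit what can be seen there.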

Other observations

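Other genes of the pathway varied far more between arrays of a group than between the groups; they were chosen after their values were seen. Pla2g2d, a secreted phospholipase, had signals of 8.62, 7.32, 7.71 and 6.89 in E2f3-deleted arrays A, E, F and H, against 7.17, 9.001, 6.58 and 7.91 in control arrays B, C, D and G. Akr1c18, an aldo-keto reductase that also acts on progesterone, had signals of 7.76, 8.86, 7.17 and 6.34 in E2f3-deleted arrays A, E, F and H, against 7.33 to 7.88 in controls, with an SD of 1.06 in E2f3-deleted cells and 0.248 in controls. Pf4, known in platelets and also present here at log2 signals of 12.04 to 13.20 in E2f3-deleted cells and 12.59 to 13.42 in controls, was lowest in replicate H and highest in control replicate C, the same arrays as for Ltc4s.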
